A study of Homo sapiens with 16 samples.

Results

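The core spliceosome is represented here by 44 genes, chosen by name as proteins of the U1, U2, U4/U6 and U5 particles, the Sm ring, the 3′ splice site, the PRP19 complex and the DEAH helicases, out of 58884 genes in the expression table. Every one of the 44 symbols matched 1 row, and 43 of them reached the minimum level for testing. The remaining gene, SNRPN, was listed at 0 in all 6 libraries. RNA came from wild type 293T cells, a transformed human embryonic kidney line, harvested 72 h after transfection with siRNA pools. There were 2 libraries with a scramble siRNA that targets no gene (numbered 1 and 2), 2 with SETD2 siRNA (numbered 2 and 3) and 2 with hnRNP L siRNA (numbered 1 and 2). All groups share the cell line, the transfection and the label wild type. The labels do not say whether the 2 libraries of a group came from separate cultures. The p-values therefore measure the spread between these libraries, which may be technical.

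The spliceosome removes introns in steps carried out by small nuclear ribonucleoproteins (snRNPs), each built of a short RNA and its proteins. SF1 and the U2AF dimer mark the branch site and the 3′ splice site, U1 snRNP binds the 5′ splice site, and U2 snRNP with its SF3A and SF3B complexes takes over the branch site. The U4/U6.U5 tri-snRNP then joins, the PRP19 complex stabilises the active form, and helicases drive the changes of shape and the release of product. SETD2 is the methyltransferase that places trimethylation on lysine 36 of histone H3 during transcription, and hnRNP L is an RNA-binding regulator of alternative splicing. The study concerns contacts of SETD2 with splicing proteins, U2AF2 and the U1 protein SNRPA among those it follows, and the comparisons here ask whether depleting SETD2 or hnRNP L altered the transcripts of the splicing machinery itself.

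Levels are TPM (transcript shares from RSEM), which are corrected for transcript length and scaled so that every library sums to 1000000. Fold changes are differences on the log2(TPM + 0.5) scale, given with their standard error (SE), and a gene was called at a limma adjusted p under 0.05 with a fold change above 1.5. The siRNA targets behaved as labelled. HNRNPL was at 341 and 457 TPM with scramble siRNA, 395 and 413 with SETD2 siRNA, and 25.04 and 28.8 with hnRNP L siRNA (log2 fold change -3.85, SE 0.143, limma adjusted p = 8.5e-06). SETD2 was at 13.4 and 11.7 TPM with scramble siRNA, 4.24 and 4.91 with SETD2 siRNA, and 10.8 and 10.2 with hnRNP L siRNA (log2 fold change -1.36 upon SETD2 depletion, SE 0.132, limma adjusted p = 0.00603, and 0.162 without scramble library 1 or 0.082 without SETD2 siRNA library 2). Of the marker genes, VIM was at 649.5 to 941 TPM and KRT8, KRT18, NEFL, NEFM and CDH2 were all detected in every library, PAX2 was low at 1.65 to 2.79 TPM, and the leukocyte, endothelial, liver, fibroblast and astrocyte markers PTPRC, PECAM1, ALB, COL1A2 and GFAP stayed at or below 0.71 TPM. NEFM was at 184 and 202 TPM with scramble siRNA, 222 and 274 with SETD2 siRNA and 437 and 454 with hnRNP L siRNA, NEFL ran in the same order from 64.6 to 129.8 TPM, and their part in the results was not tested. The 37 mitochondrially encoded genes took 17.5% of all TPM in scramble library 1 and 6.7% to 10.9% in the other 5. In a table of shares from whole cultures, a lower share of cells that express a gene and less of its RNA per cell cannot be told apart.

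No core spliceosome transcript was called in either depletion. Upon hnRNP L depletion 0 of 43 tested members passed, where 6.76% of all tested genes were called (1.75% higher and 5.01% lower), and upon SETD2 depletion 0 of 43 passed, where 0.104% were called (0.0552% higher and 0.0491% lower). Comparing the depletions directly, 0 of 43 passed against 6.84% of all genes (2.15% higher and 4.69% lower). The 95% interval of the fold change lay wholly inside a 1.5-fold change in either direction for 41 of 43 members upon hnRNP L depletion (51% of all tested genes) and for 39 of 43 upon SETD2 depletion (64.6% of all tested genes). The shares over all genes include those from a mean of 0.5 TPM up, whereas members lay between the 66.1 and the 98.7 percentile of level. Genes matched for level were not compared. Smaller differences were within the intervals, whose median half-width was 0.239 on the log2 scale. At an unadjusted p under 0.05, limma gave 6 higher and 2 lower members with hnRNP L siRNA, 18.6% of members against 28.4% of all genes (8.12% higher and 20.3% lower). With SETD2 siRNA it gave 8 higher and 0 lower, again 18.6% of members, against 13.1% of all genes (6.76% higher and 6.36% lower).

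**Figure D1:**
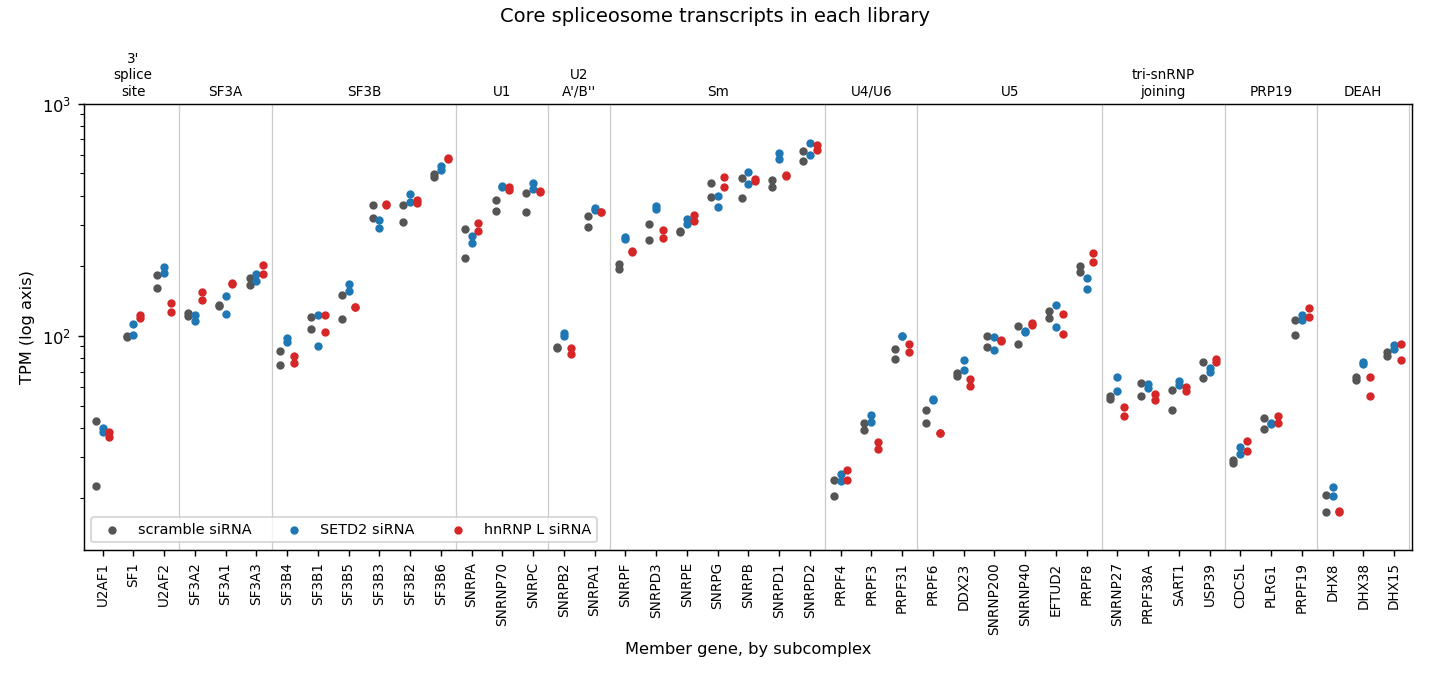
TPM (log axis) of the 43 members with a value above 0 in each of the 6 libraries, grouped by subcomplex and ordered by mean within it, with 1 point per library coloured by siRNA. Levels run from a mean of 19.3 TPM for DHX8 to 628 TPM for SNRPD2, and the points of the 3 siRNAs lie close together for most genes next to the differences between genes.

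All 43 tested members were well expressed. Their mean TPM over the 6 libraries ran from 19.3 for DHX8, a helicase that releases the spliced message, to 628 for SNRPD2, a protein of the Sm ring, which placed them between the 66.1 and the 98.7 percentile of tested genes. Levels differed by subcomplex far more than by siRNA. The median of the members' means was 422 TPM for the Sm proteins and 412 for the U1 proteins, 240.4 for SF3B and 146 for SF3A, 100.3 for the U5 proteins, 42.5 for the PRP19 complex and 39.5 for the U4/U6 proteins. These means leave out copies of a gene, and the Sm median is the own-row mean of SNRPG, whose copies are given below. Protein partners that sit in 1 particle were therefore not at equal transcript levels. Within SF3B, for example, the mean was 533 TPM for SF3B6, which touches the branch site adenosine, and 85.1 TPM for SF3B4. Together the 44 members made up 0.727% and 0.804% of all TPM with scramble siRNA, 0.835% and 0.846% with SETD2 siRNA, and 0.83% and 0.832% with hnRNP L siRNA. The 4 depleted libraries were thus all above both scramble libraries, and the lowest share was in scramble library 1, the library with the most mitochondrial RNA.

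GENCODE 44 lists a copy of U2AF1 with the biotype artifact, and processed pseudogenes of SNRPG. The aligned copies of both genes are almost identical in sequence to the member, and RSEM divides reads that match more than 1 place between them. The coding sequences below, read from hg38 with GENCODE 44, show this for SNRPG, and show for contrast SNRPB and SNRPN, a related pair that differs at more bases. They are given from the start codon for 120 bases, and capitals mark the bases of SNRPGP10 and SNRPGP15 that differ from SNRPG, and those of SNRPN that differ from SNRPB. SNRPG is the Sm protein G at chr2:70281362-70293740 (minus strand), and SNRPGP10 and SNRPGP15 are processed pseudogenes aligned at chr1:205351247-205351477 (plus strand) and chr19:14489388-14489618 (plus strand). SNRPB and SNRPN, at chr20:2461634-2470853 (minus strand) and chr15:24823637-24978723 (plus strand), encode the alternative Sm proteins B and N.
SNRPG: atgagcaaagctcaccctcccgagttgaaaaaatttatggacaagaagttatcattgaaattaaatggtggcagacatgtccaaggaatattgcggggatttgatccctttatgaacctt
SNRPGP10: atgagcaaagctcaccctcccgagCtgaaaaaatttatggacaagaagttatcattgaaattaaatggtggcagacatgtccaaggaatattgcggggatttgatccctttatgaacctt
SNRPGP15: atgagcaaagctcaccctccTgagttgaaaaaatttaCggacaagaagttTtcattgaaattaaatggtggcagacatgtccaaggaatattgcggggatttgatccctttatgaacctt
SNRPB: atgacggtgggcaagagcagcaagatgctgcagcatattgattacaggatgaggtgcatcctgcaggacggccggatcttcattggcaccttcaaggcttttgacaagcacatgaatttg
SNRPN: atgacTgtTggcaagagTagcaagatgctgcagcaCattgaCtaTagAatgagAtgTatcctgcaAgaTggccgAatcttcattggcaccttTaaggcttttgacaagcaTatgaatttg
In the stretches shown, SNRPGP10 differs from SNRPG at 1 base and SNRPGP15 at 3. SNRPN differs from SNRPB at 14 of the same 120 bases. Over the whole coding sequence the identity was 98.3% for SNRPGP10 (227 of 231 bases), 97.4% for SNRPGP15 and 79.4% for SNRPN against SNRPB.

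For a few members, the copies held a large part of the summed TPM. Which gene those reads came from was not tested. For U2AF1, the small subunit of U2AF that reads the AG at the end of the intron (chr21:43092956-43107570, minus strand), the table lists a second gene, U2AF1L5, at chr21:6484623-6499248 (minus strand). Their gene bodies were 99.8% identical, with 18 mismatched and 11 gapped bases over 14615, and GENCODE 44 gives U2AF1L5 the biotype artifact. U2AF1 itself was at 43.2 and 22.6 TPM with scramble siRNA, 38.6 and 39.9 with SETD2 siRNA, and 36.6 and 38.5 with hnRNP L siRNA, while U2AF1L5 was at 194 and 237, 278 and 267, and 229 and 231 TPM. The copy thus held 81.8% to 91.3% of the summed TPM, and the scramble libraries differed from each other by more in U2AF1 than in any other member (0.917 on the log2 scale). The sum was 237 and 260 TPM with scramble siRNA, 316 and 307 with SETD2 siRNA, and 265 and 269 with hnRNP L siRNA, and the SE fell from 0.239 on U2AF1 alone to 0.0956 on the sum. On the sum, the log2 fold change was 0.33 upon SETD2 depletion (SE 0.0956, limma adjusted p = 0.236) and 0.11 upon hnRNP L depletion (SE 0.0956, limma adjusted p = 0.511). U2AF1 was also the only member called in any alternative fit that kept the adjusted p and the fold cut-off: without scramble library 1 its own row was higher with hnRNP L siRNA by 0.72 (limma adjusted p = 0.0378, against 0.0378 to 0.731 over all alternatives), and without scramble library 2 it was lower by 0.20 (log2 fold change -0.20).

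Processed pseudogenes held 43.4% to 47.2% of the summed TPM of SNRPG and its 20 listed copies, 17.9% to 21.5% for SNRPE and 5.81% to 8.4% for SNRPF. In none of the other 6 members with listed copies did they reach 1%. Summing moved SNRPG upon hnRNP L depletion from a log2 fold change of 0.12 to 0.05 and SNRPE from 0.20 to 0.14, and it left SNRPF upon SETD2 depletion at 0.41. No member was called after summing. The values of U2AF1, SNRPG and SNRPE on their own rows are uncertain by these shares. Copies of SNRPE were not aligned, so how alike they are is not known here.

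**Figure D2:**
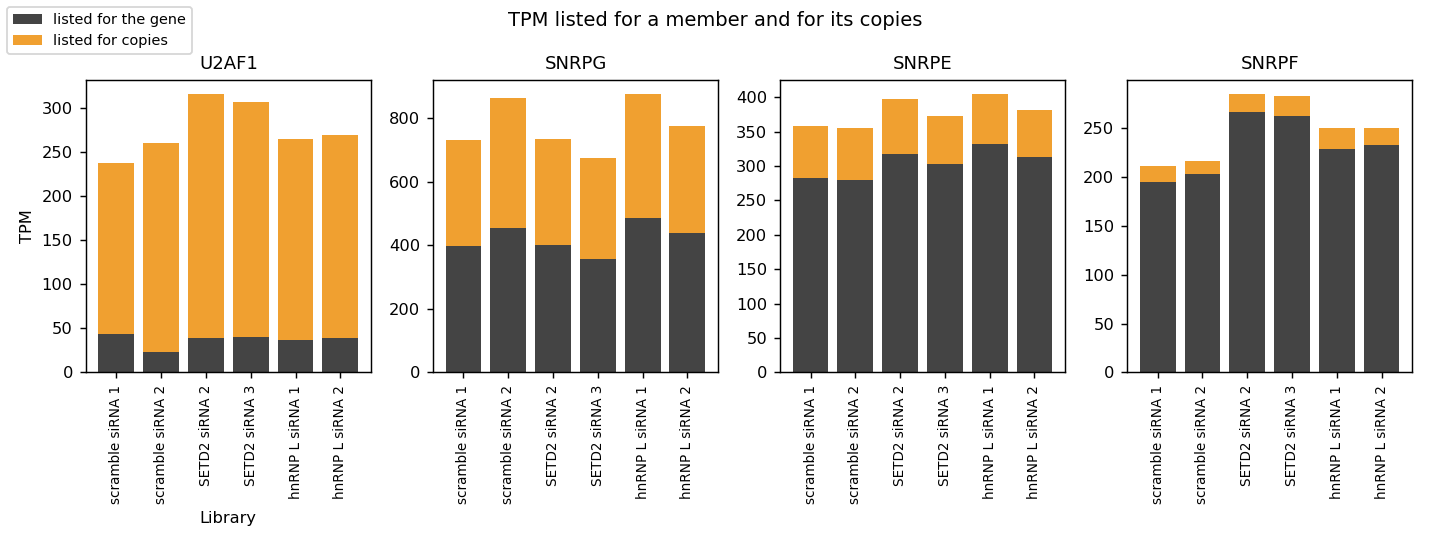
TPM listed for U2AF1, SNRPG, SNRPE and SNRPF (dark) and for their copies (orange), stacked for each of the 6 libraries. U2AF1L5 holds most of the U2AF1 bar in every library, the pseudogenes of SNRPG hold 43.4% to 47.2%, and those of SNRPF at most 8.4%.

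SNRPB was at 391 and 477 TPM with scramble siRNA, 507 and 452 with SETD2 siRNA, and 474 and 466 with hnRNP L siRNA. The groups overlapped in each comparison with scramble siRNA. Its log2 fold change was 0.15 upon SETD2 depletion (SE 0.122) and 0.12 upon hnRNP L depletion (SE 0.122). SNRPN, its neuronal counterpart from the imprinted region of chromosome 15, was listed at 0 in all 6 libraries. The neighbouring genes SNURF and SNHG14 were listed at 0 as well, NDN was at or below 0.04 TPM and MAGEL2 at 0.03 to 0.06 TPM, while UBE3A at the same locus was at 19.9 to 27.3 TPM (these neighbours were looked up after the value of SNRPN was seen).

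Depletion of hnRNP L left no member past the test, but the values did not scatter evenly around 0. The log2 fold change was above 0 for 30 of 43 members (69.8%) against 38.8% of all tested genes, and its median was 0.12 against -0.08 for all genes. Both hnRNP L libraries were above both scramble libraries for 17 members (39.5% against 18.8% of all genes) and below both for 5 (11.6% against 37.8%). The median depended on scramble library 1, which was below scramble library 2 for 35 of 43 members: without it the median was 0.02, and without scramble library 2 it was 0.20. With the mitochondrial genes removed and the rest rescaled, the median was 0.07 for the members and -0.13 for all genes, a gap of 0.20 where it had been 0.21. The gap was 0.13 without scramble library 1 and 0.09 with quantile normalization, but 0.22 with median-ratio scaling and 0.25 without scramble library 2.

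At the 3′ splice site, U2AF2 and SF1 had values in opposite directions. U2AF2, the large subunit that binds the polypyrimidine tract (chr19:55654146-55674716, plus strand), was at 161 and 183 TPM with scramble siRNA, 186 and 198 with SETD2 siRNA, and 127 and 139 with hnRNP L siRNA. Both hnRNP L libraries lay below the other 4. Its log2 fold change upon hnRNP L depletion was -0.37 (22.5% lower, SE 0.105, 95% interval -0.61 to -0.13, limma adjusted p = 0.0568), the member with the smallest adjusted p in this comparison and just outside the threshold. Over the alternative fits this adjusted p ran from 0.0164 to 0.333, under 0.05 in 3 of 20. SF1, the branch site protein, was at 99.8 and 98.7 TPM with scramble siRNA and 119 and 122 with hnRNP L siRNA, with a log2 fold change of 0.28 (SE 0.0968, limma adjusted p = 0.0982).

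The 3 SF3A proteins, which tie SF3B to the U2 particle, were the subcomplex in which every member was above both scramble libraries with hnRNP L siRNA. Of all tested genes, 18.8% were above both. SF3A1 was at 136 and 134 TPM with scramble siRNA and 167 and 169 with hnRNP L siRNA, a log2 fold change of 0.32 (SE 0.108, limma adjusted p = 0.0937). SF3A2 followed at 0.26 (SE 0.0959, limma adjusted p = 0.114) and SF3A3 at 0.17 (SE 0.0999, limma adjusted p = 0.316). None of the 3 passed the test. With SETD2 siRNA the same genes gave 0.01, -0.05 and 0.05, with library values that overlapped those of scramble siRNA. The 6 SF3B proteins gave log2 fold changes from -0.02 for SF3B4 to 0.24 for SF3B6 with hnRNP L siRNA. SF3B1, the scaffold of that complex and a frequent target of mutation in blood cancers, was at 120 and 107 TPM with scramble siRNA, 90.3 and 123 with SETD2 siRNA, and 103 and 122 with hnRNP L siRNA. Its pair of SETD2 siRNA libraries stood further apart than those of any other member (0.438 on the log2 scale), and its 3 groups overlapped.

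The U1 proteins were all above 0 with either siRNA, and none passed. SNRPA, the U1 snRNP A protein that binds a loop of U1 RNA (chr19:40750637-40765389, plus strand), was at 216 and 288 TPM with scramble siRNA, 251 and 269 with SETD2 siRNA, and 306 and 283 with hnRNP L siRNA. The scramble libraries spanned the SETD2 siRNA libraries entirely and reached into the hnRNP L pair. Its log2 fold change was 0.24 upon hnRNP L depletion (SE 0.138, 95% interval -0.08 to 0.55, limma adjusted p = 0.296) and 0.06 upon SETD2 depletion (SE 0.138, 95% interval -0.26 to 0.37, limma adjusted p = 0.885). SNRNP70, the defining 70K protein of U1, gave 0.24 (SE 0.0992, limma adjusted p = 0.159) and 0.27 (SE 0.0992, limma adjusted p = 0.309). SNRPC, which helps U1 pair with the 5′ splice site, gave 0.16 and 0.24. The U2-specific proteins SNRPA1 and SNRPB2 gave 0.13 and -0.05 with hnRNP L siRNA and 0.18 each with SETD2 siRNA.

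The members below both scramble libraries with hnRNP L siRNA were U2AF2, PRPF3, PRPF6, DDX23 and SNRNP27, all but U2AF2 proteins of the U4/U6.U5 tri-snRNP. That made 4 of its 13 listed members (30.8%), under the 37.8% of all genes that were below both. PRPF3, which holds U4 and U6 together, had a log2 fold change of -0.26 (SE 0.101, limma adjusted p = 0.13). PRPF6, the bridge between U5 and U4/U6, had -0.22 (SE 0.102, limma adjusted p = 0.189), SNRNP27 had -0.20 (SE 0.107, limma adjusted p = 0.257) and DDX23, the helicase that prepares the 5′ splice site transfer, had -0.11 (SE 0.0987, limma adjusted p = 0.499). None passed the test. In the other direction PRPF8, the large U5 protein at the centre of the active site, was at 188 and 199.7 TPM with scramble siRNA and 228 and 207 with hnRNP L siRNA, a log2 fold change of 0.17 (SE 0.105, limma adjusted p = 0.339). Over the 6 U5 proteins 3 values were above 0 and 3 below, with a median of -0.05. The helicase SNRNP200, which unwinds U4/U6, and the GTPase EFTUD2 gave 0.02 and -0.14, and the U5 protein SNRNP40 gave 0.16.

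The 7 tested Sm proteins ran from -0.03 for SNRPD3 to 0.21 for SNRPF with hnRNP L siRNA, and 4 of them (SNRPD1, SNRPD2, SNRPE and SNRPF) were above both scramble libraries. Of all tested genes, 18.8% were above both. The late-acting members did not pass the test with hnRNP L siRNA. In the PRP19 complex the ubiquitin ligase PRPF19 and its partner CDC5L both gave 0.22 (SE 0.109 and 0.105) and PLRG1 gave 0.05. Among the helicases DHX8 gave -0.11, DHX38 -0.11 and DHX15 0.02. DHX8, the lowest member, was at 17.5 and 20.6 TPM with scramble siRNA, 20.4 and 22.3 with SETD2 siRNA, and 17.4 and 17.7 with hnRNP L siRNA. SNRPD2, the highest, was at 565.5 and 627 TPM, 678 and 602, and 666 and 632. DHX8 overlapped scramble siRNA in both depletions, and neither gene had an adjusted p under 0.05 in any comparison. The remaining members with hnRNP L siRNA were PRPF4 (0.18), PRPF31 (0.09), SART1 (0.16), USP39 (0.13) and PRPF38A (-0.11), all with limma adjusted p of 0.359 or more.

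**Figure D3:**
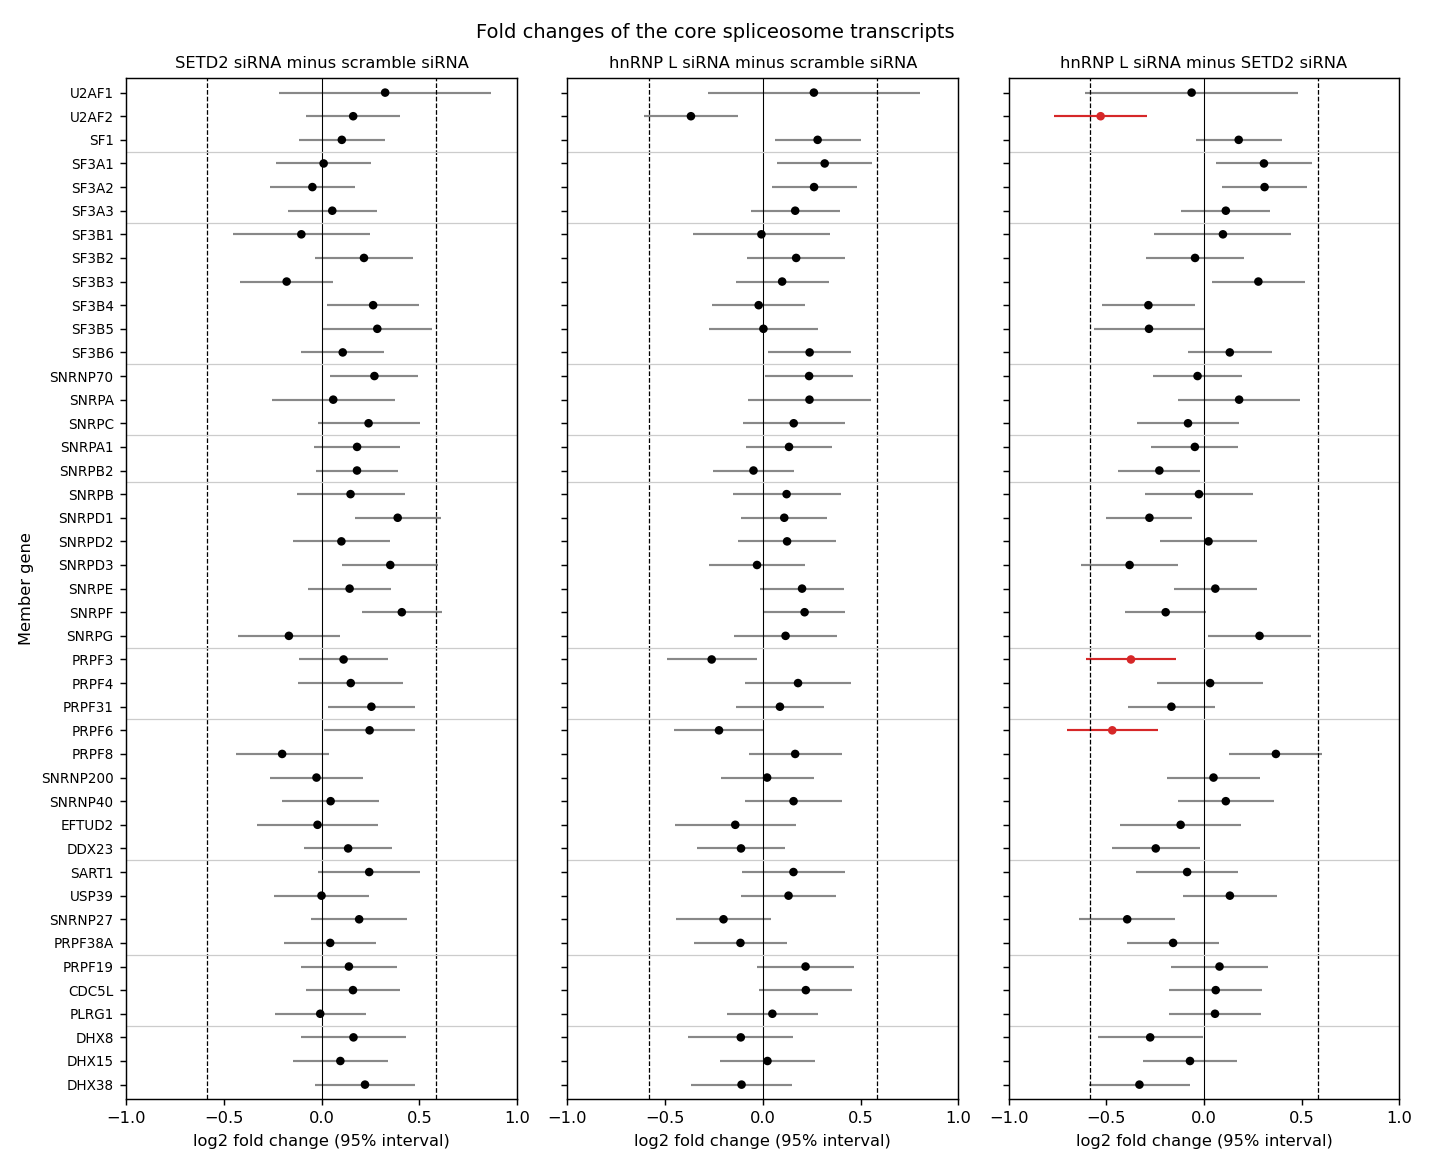
Log2 fold change (points) and 95% interval (lines) of the 43 tested members in 3 comparisons, with members ordered by subcomplex, grey horizontal lines between subcomplexes, dashed vertical lines at a 1.5-fold change and red for a limma adjusted p under 0.05. In the left and middle panels no member is red, and in the right panel U2AF2, PRPF3 and PRPF6 are red and to the left of 0.

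Depletion of SETD2 gave higher values for most members, without a call. The log2 fold change was above 0 for 34 of 43 (79.1%) against 52.7% of all genes, with a median of 0.14 against 0.01. Both SETD2 siRNA libraries were above both scramble libraries for 23 members (53.5% against 22.9% of all genes) and below both for 2 (4.65% against 20.6%), SF3B3 and PRPF8. This median too was smaller without scramble library 1 (0.09) and with the mitochondrial genes removed (0.05, against -0.07 for all genes). With quantile normalization 27 of 43 members were above 0, the median was 0.06, and its gap to all genes was 0.05 in place of 0.13. That gap was 0.10 without scramble library 1, 0.13 with median-ratio scaling and 0.14 without scramble library 2. Because both depletions were set against the same 2 scramble libraries, their shared direction is not independent.

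The 3 members with the highest log2 fold changes upon SETD2 depletion, SNRPF, SNRPD1 and SNRPD3, were Sm proteins, although the median of the 7 tested Sm proteins (0.15) was below that of the U1 proteins (0.24) and of the U2 pair SNRPA1 and SNRPB2 (0.18). Sm proteins form the ring around the snRNAs of U1, U2, U4 and U5. SNRPF was at 195 and 204 TPM with scramble siRNA, 267 and 262 with SETD2 siRNA, and 229 and 233 with hnRNP L siRNA. The 3 groups did not overlap, with SETD2 siRNA highest. The log2 fold change upon SETD2 depletion was 0.41 (32.9% higher, SE 0.0908, 95% interval 0.20 to 0.62), and its unadjusted p of 0.00157 from limma became an adjusted p of 0.18, the smallest of any member in this comparison. SNRPD1, which pairs with SNRPD2 in the ring, was at 439 and 469 TPM with scramble siRNA and 579 and 611 with SETD2 siRNA (log2 fold change 0.39, SE 0.0969, limma adjusted p = 0.197). SNRPD3, which pairs with SNRPB, was at 259 and 302 TPM with scramble siRNA and 350.5 and 363 with SETD2 siRNA (log2 fold change 0.35, SE 0.108, limma adjusted p = 0.249). The intervals of these 3 genes and of U2AF1 were the only 4 that reached a 1.5-fold change. Values differed within the ring, where SNRPE gave 0.14, SNRPD2 0.10 and SNRPG -0.17 (SE 0.115).

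Outside the Sm ring, 5 more members had an unadjusted limma p under 0.05 upon SETD2 depletion: SF3B4 at 0.26, SF3B5 at 0.28, SNRNP70 at 0.27, PRPF31 at 0.25 and PRPF6 at 0.25. All were higher and all had adjusted p of 0.309 or more. The lowest values were those of PRPF8, at 159 and 178 TPM against 188 and 199.7 with scramble siRNA (log2 fold change -0.20, SE 0.105, limma adjusted p = 0.437), and of SF3B3, at 292 and 314 TPM against 320.3 and 367 (log2 fold change -0.18, SE 0.105, limma adjusted p = 0.482). U2AF2 gave 0.16 (SE 0.105, 95% interval -0.08 to 0.40, limma adjusted p = 0.531). The values for the helicases DHX8, DHX15 and DHX38 were 0.16, 0.10 and 0.22, and for PRPF19, CDC5L and PLRG1 0.14, 0.16 and -0.01. U2AF1 gave 0.32 on its own row (SE 0.239, limma adjusted p = 0.586). The remaining members ran from -0.10 for SF3B1 to 0.24 for SART1 and SNRPC, and none passed the test.

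**Figure D4:**
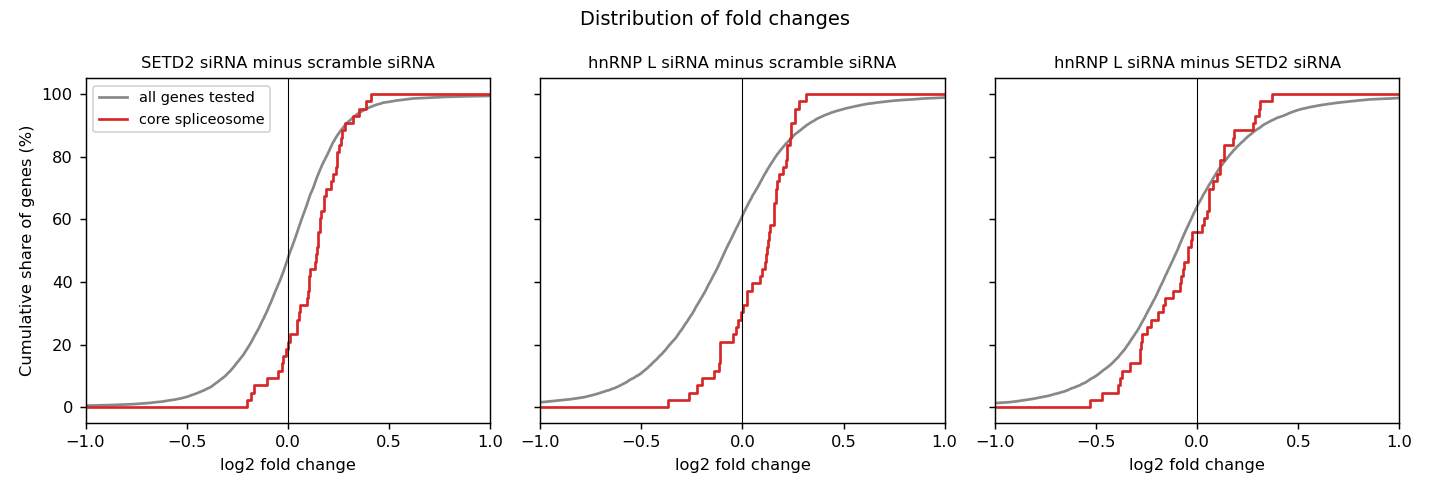
Cumulative share (%) of log2 fold changes for the 43 tested members (red steps) and for all 16300 tested genes (grey line) in 3 comparisons. The members' curve lies to the right of the grey line at its middle in the first 2 panels, with medians of 0.14 and 0.12 against 0.01 and -0.08, spans a narrower range, and runs close to the grey line in the third.

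In the direct comparison of the depletions the fold changes do not involve the scramble libraries, which enter through the estimate of spread alone. Here 3 members passed a limma adjusted p under 0.05, all lower with hnRNP L than with SETD2 siRNA and all under the 1.5-fold cut-off. This was 6.98% of members, against 10.8% of all genes in either direction (2.77% higher and 7.99% lower), so the share was near that of the background. U2AF2 was 30.7% lower (log2 fold change -0.53, SE 0.105, limma adjusted p = 0.0176). PRPF6 (chr20:63981132-64033100, plus strand) was at 38.1 and 38.3 TPM with hnRNP L siRNA, 52.7 and 53.5 with SETD2 siRNA, and 42.0 and 47.7 with scramble siRNA, and was 27.8% lower (log2 fold change -0.47, SE 0.102, limma adjusted p = 0.0242). PRPF3 (chr1:150321479-150353233, plus strand) was at 32.7 and 35.0 TPM with hnRNP L siRNA, 42.5 and 45.5 with SETD2 siRNA, and 39.3 and 42.1 with scramble siRNA, and was 22.8% lower (log2 fold change -0.37, SE 0.101, limma adjusted p = 0.049). In all 3 genes the hnRNP L libraries were the lowest of the 6 and the SETD2 siRNA libraries the highest. None passed when any 1 of the 4 depleted libraries was left out, when genes were not filtered on level, or when the variance trend was dropped. Over all alternatives the limma adjusted p reached 0.176 for U2AF2, 0.167 for PRPF6 and 0.283 for PRPF3, and it stayed under 0.05 in 12, 12 and 9 of 18.

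Just outside that threshold were SNRNP27 (log2 fold change -0.39, SE 0.107, limma adjusted p = 0.0507), SNRPD3 (-0.38, SE 0.108, limma adjusted p = 0.0572) and, in the opposite direction, PRPF8 (0.37, SE 0.105, limma adjusted p = 0.0572). By subcomplex, the SF3A proteins were all higher in value with hnRNP L than with SETD2 siRNA (median 0.31, lowest 0.11), the DEAH helicases were all lower in value (median -0.28), and the Sm proteins ran from -0.38 for SNRPD3 to 0.28 for SNRPG. Only 35.8% of all tested genes were above 0 in this comparison, so a lower value was the more common direction for any gene. At an unadjusted p under 0.05, 5 members were higher and 12 lower (39.5% of members against 28.5% of all genes, 7.71% higher and 20.8% lower). The median over members was -0.05 against -0.10 for all genes, a gap of 0.05. Median-ratio scaling, quantile normalization and removal of the mitochondrial genes shifted all genes, to medians of -0.003, -0.008 and -0.05, and with them the members, to 0.06, 0.03 and 0.003, and the gap was then 0.06, 0.04 and 0.06.

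**Figure D5:**
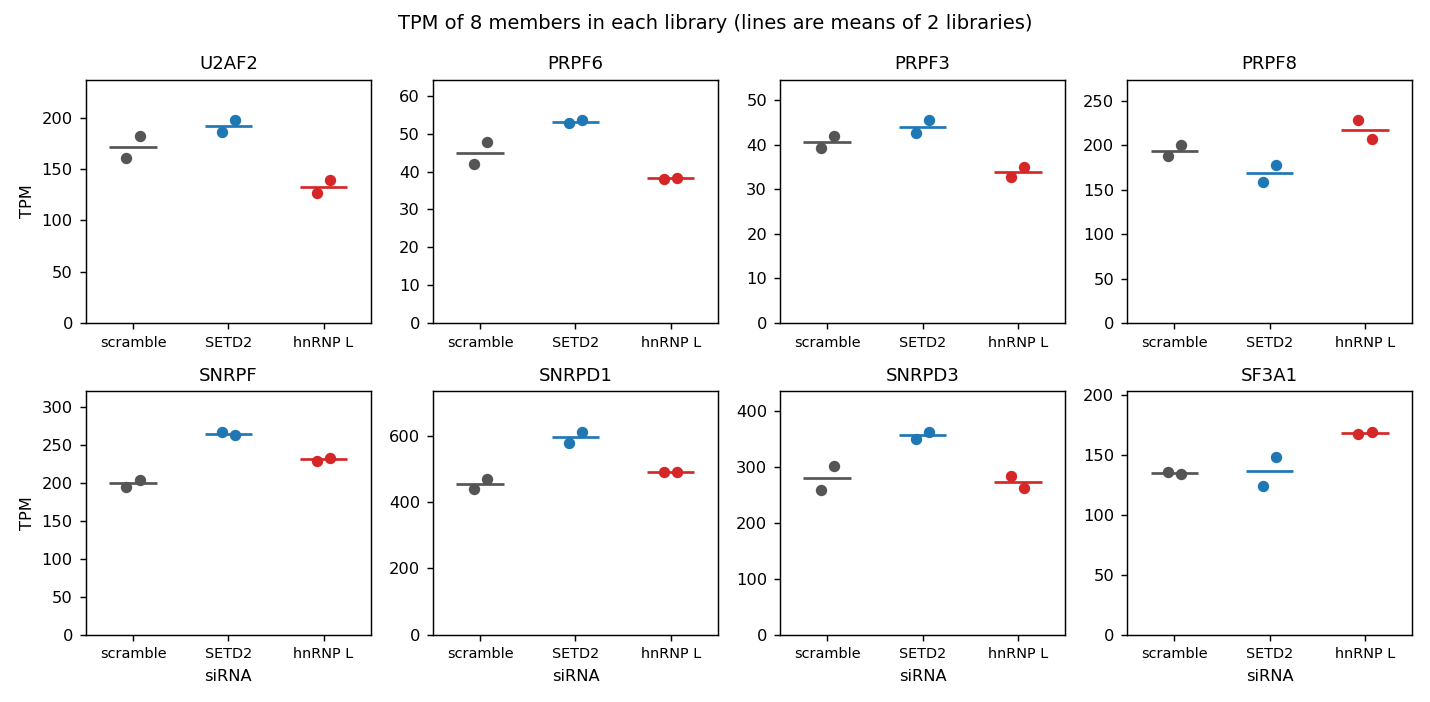
TPM of 8 members in each library (points) with the mean of the 2 libraries of a group (line), on axes that start at 0. U2AF2, PRPF6 and PRPF3 are lowest with hnRNP L siRNA and highest with SETD2 siRNA, PRPF8 has the reverse order, SNRPF, SNRPD1 and SNRPD3 are highest with SETD2 siRNA, and SF3A1 is highest with hnRNP L siRNA.

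The 74 other genes of the splicing pathway (LSm proteins of U6, minor spliceosome, other major spliceosome factors, snRNP assembly and exon junction complex) gave the same count of 0 calls against scramble siRNA in both depletions. Of all tested genes, 6.76% were called upon hnRNP L depletion and 0.104% upon SETD2 depletion. The median log2 fold change of the 74 was 0.04 upon hnRNP L depletion and 0.13 upon SETD2 depletion. Without the fold cut-off, 2 were higher and 3 lower upon hnRNP L depletion (limma adjusted p under 0.05), against 2.72% and 8.48% of all genes. The higher ones were SNU13, which binds the kink of U4 RNA (0.46, adjusted p = 0.0374), and GEMIN6 of the SMN complex that loads Sm rings (0.40, adjusted p = 0.0405). The lower ones were the U1-associated LUC7L (-0.57, adjusted p = 0.0173), the assembly factor GEMIN2 (-0.41, adjusted p = 0.0324) and MAGOHB of the exon junction complex (-0.50, adjusted p = 0.0308).

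In the direct comparison 3 of the 74 were called (4.05%, against 6.84% of all genes). MAGOHB was at 25.1 and 30.5 TPM with hnRNP L siRNA, 53.8 and 54.4 with SETD2 siRNA, and 41.0 and 37.9 with scramble siRNA (log2 fold change -0.96, SE 0.118, limma adjusted p = 0.00368). PPIH, a prolyl isomerase bound to PRPF3 and PRPF4 in U4/U6, was at 150.1 and 158 TPM, 246 and 234, and 168 and 195 in the same order (-0.64, SE 0.106, limma adjusted p = 0.0103). SNU13, which is needed for PRPF31 to join U4, was higher, at 278 and 270.3 TPM against 181 and 159 with SETD2 siRNA and 183 and 216 with scramble siRNA (0.69, SE 0.116, limma adjusted p = 0.0105). Of the U4/U6 proteins, PPIH and SNU13 are named here because they were called, PPIH lower and SNU13 higher with hnRNP L siRNA. PRPF3 was lower but under the fold cut-off, and PRPF4 and PRPF31 gave 0.03 and -0.17 without passing. As the called share was below that of all genes, no direction is drawn for U4/U6 proteins as a group. With 1 depleted library left out, the limma adjusted p was 0.0715 to 0.116 for PPIH and 0.071 to 0.111 for SNU13, and that of MAGOHB was 0.0512 to 0.0554 without hnRNP L library 1 or either SETD2 siRNA library.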

How the data were processed

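The authors aligned the reads to hg38 with STAR 2.6.1c and computed TPM per gene with RSEM 1.3.0 (versions per the labels). The deposited TPM table holds 1 column for each of the 6 RNA libraries, which were made after ribodepletion and polyA enrichment. TPM keep no read counts, so the depth behind a value is unknown here and no counting interval is given. The 10 ChIP libraries of the series are not used here. The test used log2(TPM + 0.5), a scale on which changes of low genes are understated. The 16300 genes with a mean of at least 0.5 TPM were fitted with limma 3.58.1 (R 4.3.3), 1 mean per siRNA over 6 libraries, a variance trend and Benjamini-Hochberg adjustment over all of them. A call needed both an adjusted p below 0.05 and a change of more than 1.5-fold. Gene by gene, a two-sided exact permutation test of 2 against 2 cannot go below 0.333. The fit was tested on simulated data. Positions, biotypes and copies came from GENCODE 44 on hg38, and sequences were aligned with edlib in Python 3.11.15. The sequence of 1 member and its copy is not reported here.

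The members, the related lists and the tests were chosen with earlier results of these data known. Values in every library were to be given for called members, members past the adjusted p against scramble siRNA, the highest and lowest member, SNRPN, SNRPB, U2AF1, U2AF1L5, U2AF2, SNRPA, SETD2 and HNRNPL, and related genes called in a comparison. The other members given by library were chosen after their values were seen. Other pseudocounts, filters, scalings, call rules, library subsets, sums with copies and a replicate block were tried. The sums with pseudogenes, the crossed block and the unadjusted rule were added after seeing the data.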

Additional observations from a re-analysis of the deposited data

How the results depend on the processing

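The count of members called against scramble siRNA or between the depletions was 0 in each direction under every alternative with the same call rule except 1. Without scramble siRNA replicate 1, 1 member was called higher upon hnRNP L depletion, so leaving out each library in turn gave 0 to 1 there and 0 in the other 5 counts. Without the fold cut-off, 3 members were lower with hnRNP L than with SETD2 siRNA. By an unadjusted p under 0.05, 6 were higher and 2 lower upon hnRNP L depletion, 8 higher upon SETD2 depletion, and 5 higher and 12 lower in the direct comparison. Median-ratio scaling moved the members' median in the direct comparison from -0.05 to 0.06 and that of all genes from -0.10 to -0.003, and it brought 7 members (SF1, SF3A1, SF3A2, SF3B6, SNRNP70, SNRPF and CDC5L) past an adjusted p of 0.05 upon hnRNP L depletion, all higher and under 1.5-fold. This scaling divides all genes of a library by 1 factor, 1.004 and 1.049 for scramble and 0.93 and 0.987 for hnRNP L siRNA. Upon hnRNP L depletion it moved the median of all genes from -0.08 to 0.006 and that of the members from 0.12 to 0.22. Why the factors differed was not tested. Over the 129 pairs of a member and a comparison, 1 was called, 20 passed the adjusted p and 40 changed sign under at least 1 alternative.

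Over all genes, the calls upon hnRNP L depletion were 286 higher and 816 lower, and with median-ratio scaling 430 and 516, with quantile normalization 424 and 482, and with no filter 62 and 173. The direct comparison gave 350 and 765, and with the same alternatives 454 and 472, 442 and 458, and 66 and 120. Leaving out 1 hnRNP L library gave 64 and 108 or 54 and 173 calls upon its depletion, and leaving out scramble library 1 gave 99 and 264. SETD2 depletion gave 9 and 8 calls, with no filter 0 and 1, and with protein-coding and lncRNA genes alone 25 and 35. SETD2 itself had an adjusted p of 0.162 with no filter, 0.162 without scramble library 1 and 0.082 without SETD2 siRNA library 2. MAGOHB, PPIH and SNU13 missed the call when most single depleted libraries were left out.

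Scramble and hnRNP L siRNA share the numbers 1 and 2, but nothing says that a number marks a shared culture, and the deviations of same-numbered libraries correlated at -0.126 across genes. A replicate block gave 0 called members, with 210 genes higher and 505 lower, and the block with crossed numbers gave 0 members, with 413 and 993. No paired analysis was possible because SETD2 siRNA shares only the number 2 with the other groups, for the comparisons that use it. The 2 libraries a group limit what can be resolved: the median half-width of a member's 95% interval was 0.239 on the log2 scale.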
